A study of Mus musculus with 4 samples.

Results

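The transcripts of 10 mouse genes of fibroblast growth factor (FGF) signalling were followed on 4 two-colour expression arrays: the receptors Fgfr1, Fgfr2, Fgfr3 and Fgfr4, and the feedback or target genes Spry1, Spry2, Spry4, Etv4, Etv5 and Dusp6. They were taken by name, as every non-control probe that the scanner files assign to one of these symbols, which gave 10 of 19762 named genes, with 17 of 55681 probes and 26 of 62976 spots on each array. Each array carried 1 RNA labelled odontoblast (dental pulp, strain C57BL/6, Cy5 dye) and 1 RNA labelled osteoblast (calvaria, the bone of the skull vault, with no strain given, Cy3 dye). Both came from 2-week-old mice that carried EGFP under a 2.3 kb type I collagen promoter, and the series design calls the cells donor matched. Cells were released by enzymes and sorted for GFP, so the promoter's activity decided which cells entered both RNAs, and any other cell that used this promoter would have been sorted too. The number of animals behind each RNA is unknown here. The 4 arrays are replicates of 1 comparison, with no dye swap, so an effect of the dye and a difference between the RNAs cannot be told apart, and p-values cover only the variation among these arrays, part of which may be technical.

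FGF ligands bind receptor tyrosine kinases together with heparan sulphate, and the active receptor signals through the RAS and ERK kinases, among other routes. ERK signalling switches on genes that damp it again, such as the Sprouty genes and Dusp6, which encodes a phosphatase that removes the activating phosphates from ERK, and it raises the ETS family transcription factors Etv4 and Etv5. In the skeleton the pathway is best known from skull sutures, where activating changes in FGFR2 fuse the bones too early in humans, from growth cartilage, where FGFR3 restrains growth, and from the tooth germ, where FGFs pass between epithelium and mesenchyme.

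The probes that represent Fgfr1, Fgfr4 and Fgfr3 are shown because these receptors are close relatives whose transcripts could in principle share a probe. They were compared only with each other, and not with the Fgfr2 probes or with whole transcripts. Binding of a transcript to the probe of another receptor was thus not tested. The probes match coding sequence at or just past the end of the kinase domain. Capitals mark the longest run of bases that the Fgfr1 and Fgfr4 probes have in common.
Fgfr1: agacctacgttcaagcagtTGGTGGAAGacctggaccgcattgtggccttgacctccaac
Fgfr4: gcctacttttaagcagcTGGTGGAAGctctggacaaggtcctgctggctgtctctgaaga
Fgfr3: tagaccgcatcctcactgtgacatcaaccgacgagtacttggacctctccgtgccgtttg
These probes lay on mm9 at chr8:26684061-26684120 (Fgfr1, plus strand), chr13:55269212-55269271 (Fgfr4) and chr5:34077856-34078090 (Fgfr3). The Fgfr3 probe has 60 bases over a span of 235 bases of the genome, so it crosses a gap in the alignment of transcript to genome. Ungapped alignments were searched only where they covered most of the probe length. At the best of these the Fgfr1 and Fgfr4 probes had 35 of 58 bases alike (60.3%), with a longest shared run of 9 bases. The Fgfr1 and Fgfr3 probes had 24 of 52 alike (46.2%), and the Fgfr4 and Fgfr3 probes 21 of 50 (42%). Shorter overlaps were not scored, among them the one that lines up the 8-base run shared by the Fgfr1 and Fgfr3 probes. These percentages therefore do not rank how alike the transcripts are.

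The values are log2 ratios of Cy5 (labelled odontoblast) over Cy3 (labelled osteoblast), so a positive one stands for a brighter Cy5 spot. Median signal over background was 7.10 to 8.21 in Cy5 and 10.9 to 16.0 in Cy3, and ratios of all features correlated between arrays at r = 0.304 to 0.489. The dye labels were checked with marker genes, and these ran against them. Dspp, which encodes the main non-collagen protein of dentin matrix, had a mean ratio of -1.95, negative on all 4 arrays (adjusted p = 0.0602), whereas Ifitm5, a gene of bone-forming osteoblasts, had 5.05 (adjusted p = 0.0167) and Col1a2 2.79 (adjusted p = 0.0230). Channels are therefore named by dye and label. If the labels were exchanged, the Cy5 over Cy3 ratios would stay, and every sign read as odontoblast over osteoblast would turn.

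A gene was called when its mean ratio differed from 0 with an adjusted p under 0.05 in limma (Benjamini-Hochberg over all 37360 features). Of the 10 genes 4 were called, where 1.66% of all features were. Fgfr2 and Spry1 were higher in the channel labelled odontoblast (1.01% of all features were called in that direction), and Spry4 and Etv4 were higher in the channel labelled osteoblast (0.653%). The called genes were 1 of 4 receptors and 3 of 6 feedback and target genes. The sign was the same on every array for 5 of 10 genes, the 4 called ones and Fgfr4, against 30.5% of all features; 3 were positive throughout (15.7% of all features) and 2 negative throughout (14.8%). Probe by probe, 5 of 17 were called, against 1.62% of all probes. The median size of the ratio, without its sign, was 0.65 over the 10 genes and 0.32 over all features. With an array left out, 0 of 10 genes were called in limma without array 1, 2 or 4 and 1 without array 3, while 5 of 10 had an unadjusted p under 0.05 each time. The calls over all features fell to 0, 0, 248 and 35 without array 1, 2, 3 and 4, against 620 with all arrays, with 5151, 5691, 7016 and 4898 features at an unadjusted p under 0.05.

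**Figure D1:**
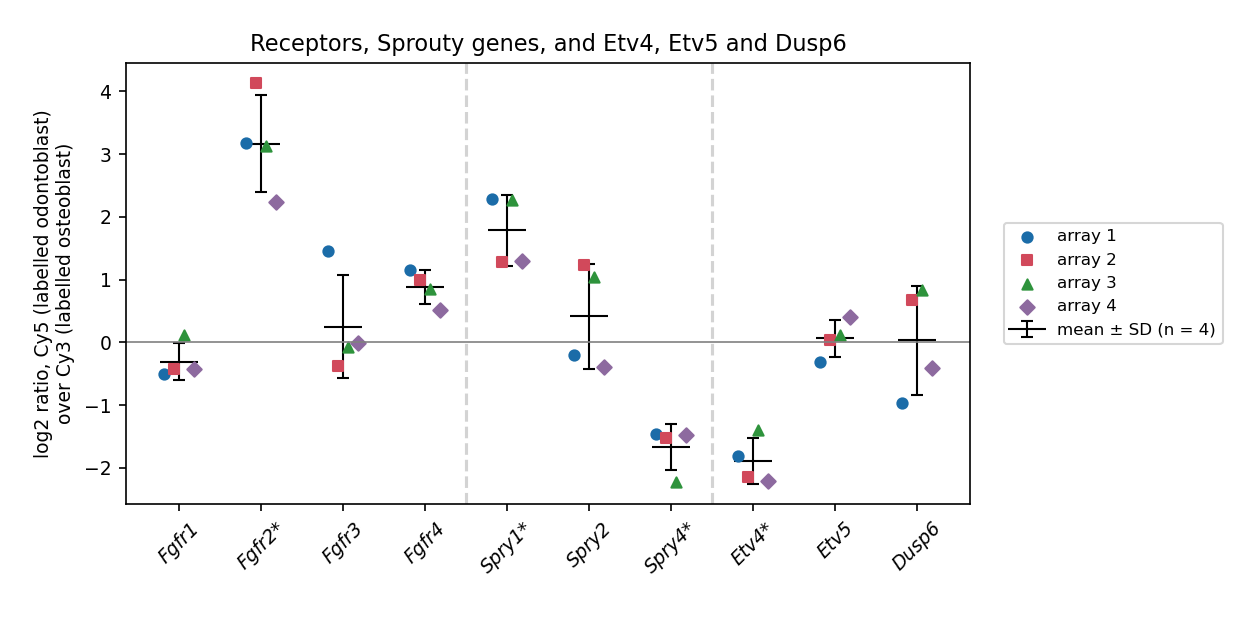
Log2 ratio of Cy5 (labelled odontoblast) over Cy3 (labelled osteoblast) of the 10 genes, with 1 point per array and a bar for the mean and SD (n = 4); an asterisk marks an adjusted p under 0.05. Fgfr2, Fgfr4 and Spry1 lie above 0 and Spry4 and Etv4 below 0 on all 4 arrays, whereas Fgfr1, Fgfr3, Spry2, Etv5 and Dusp6 lie on both sides of 0.

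Among the receptors, Fgfr2 had by far the highest ratio. Fgfr2 is a receptor of osteoprogenitors and of dental and other epithelia, in splice forms that bind different ligands. Its normalised intensity was 11213, 10679, 11542 and 8205 in the channel labelled odontoblast on arrays 1 to 4, against 1236, 608, 1316 and 1746 in the channel labelled osteoblast. The channels did not overlap: the lowest Cy5 value was above every Cy3 value. The ratios were 3.18, 4.13, 3.13 and 2.23, and array 4 had the lowest. The mean ratio of Fgfr2 was 3.17 ± 0.33 (SE, n = 4), a 9.0-fold higher signal in the channel labelled odontoblast (adjusted p = 0.0222), above 99.6% of all features. The adjusted p was 0.115, 0.0725, 0.0629 and 0.0719 without array 1, 2, 3 and 4, while the mean ratio stayed between 2.85 and 3.48 in these and the other settings tried.

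A second Fgfr2 probe, printed in 10 spots on each array, gave ratios of 3.03, 3.98, 2.60 and 2.40, with a mean of 3.0 ± 0.70 (SD, n = 4) and an adjusted p of 0.0209 over all probes. Within an array its spots varied by an SD of 0.054 to 0.114, so the spread between arrays was several times the spread between spots. Both probes lie on the minus strand of chr7 on mm9, at chr7:137307473-137307532 (the brighter one) and chr7:137307455-137307514, and share 42 bases, so the second is a repeat measurement of the same transcript end and says nothing of which splice form was present. Among 18229 named genes outside the lists, Adh1, which encodes an alcohol dehydrogenase, was nearest to Fgfr2 over the 4 ratios (Euclidean distance 0.372, mean ratio 3.24). Ifi207, an interferon-inducible gene, was also among the 3 nearest, at a distance of 0.751 (mean ratio 3.35).

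**Figure D2:**
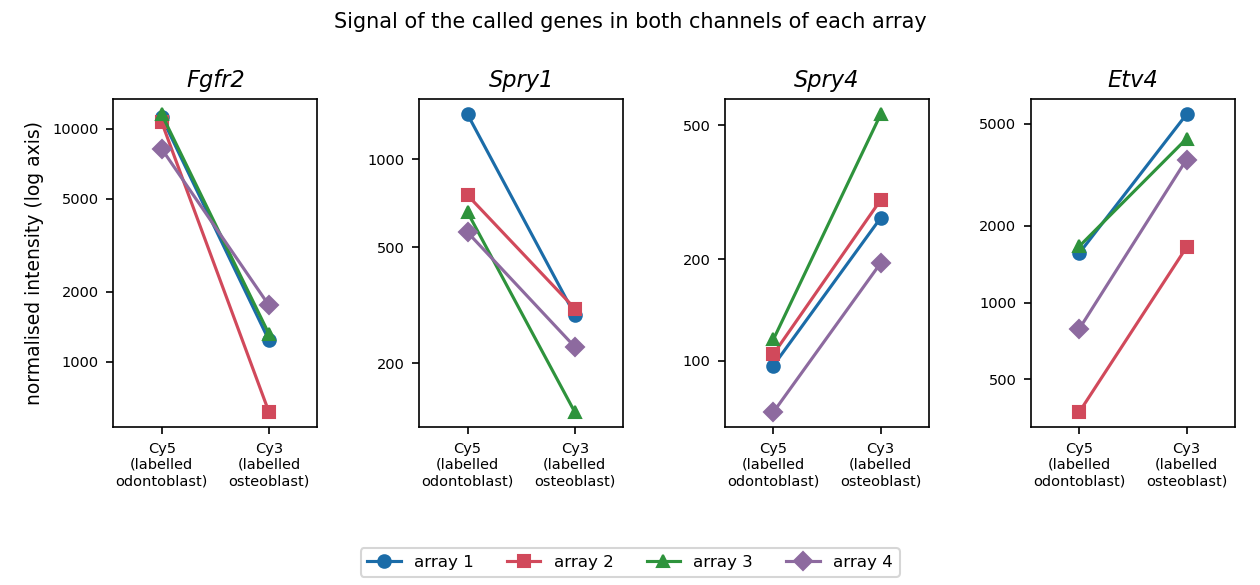
Normalised intensity (log axis) of the 4 called genes in both channels of each array, with 1 line per array joining Cy5 (labelled odontoblast) on the left and Cy3 (labelled osteoblast) on the right. Every line falls to the right for Fgfr2 and Spry1 and climbs to the right for Spry4 and Etv4; levels of different genes come from different probes and are not comparable.

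Fgfr4 was not called. This receptor, best known in liver as the partner of beta-Klotho, had intensities of 4006, 2803, 2859 and 2847 in the channel labelled odontoblast, against 1797, 1402, 1582 and 1997 in the channel labelled osteoblast. The channels did not overlap. The ratios of Fgfr4 were 1.16, 1.0, 0.85 and 0.51, positive on all arrays, with a mean of 0.88 ± 0.19 (SE, n = 4; adjusted p = 0.103). Its other probe gave 0.09, 0.67, -0.65 and 0.70, a mean of 0.20 (adjusted p over all probes 0.733), with array 3 on the other side of 0. With arrays centred on their median in place of loess, which moves the median over all features to 0.16 and single genes by unequal amounts, Fgfr4 was called at 1.11 (adjusted p = 0.0290).

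Fgfr3, the receptor that restrains cartilage growth, had intensities of 6268, 2411, 4480 and 4084 in the channel labelled odontoblast, against 2272, 3126, 4723 and 4122 in the channel labelled osteoblast. The channels overlapped, and array 1 alone had a clearly higher Cy5 value. The ratios were 1.46, -0.37, -0.08 and -0.01, a mean of 0.25 ± 0.34 (SE, n = 4; adjusted p = 0.725), and without array 1 the mean was -0.15. The probes of Fgfr3 at other places on chr5 gave 0.87, 0.14, -0.86 and 0.31 (mean 0.11) and 0.89, 0.25, 1.26 and 0.21 (mean 0.65, adjusted p over all probes 0.249). The 3 probes thus agreed in sign on array 1 alone, where all were positive.

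Fgfr1, the widely used receptor of mesenchyme, had intensities of 40867, 39888, 47694 and 31032 in the channel labelled odontoblast, against 57827, 53515, 43739 and 41624 in the channel labelled osteoblast. The channels overlapped. The ratios were -0.50, -0.42, 0.12 and -0.42, with array 3 alone positive, and the mean was -0.31 ± 0.19 (SE, n = 4; adjusted p = 0.432). With median centring it was 0.60, on the other side of 0 (adjusted p = 0.136). The other Fgfr1 probes had means of -0.21 and -0.74, and the last of these was negative on all arrays (-1.04, -0.24, -1.14 and -0.54; adjusted p over all probes 0.184).

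**Figure D3:**
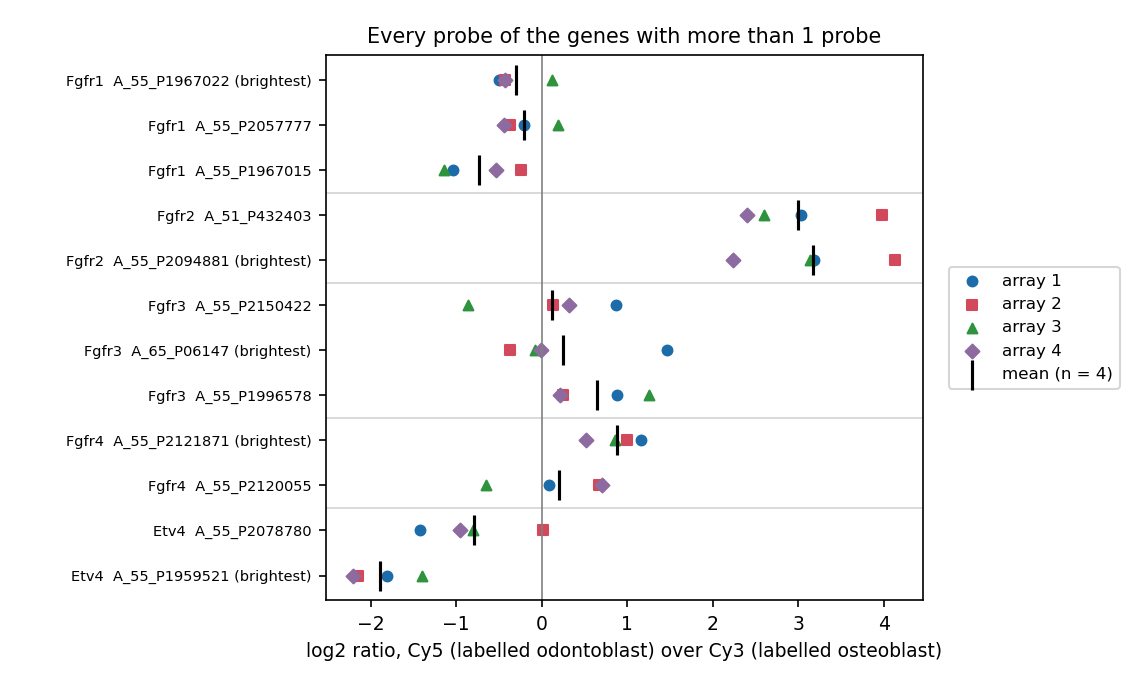
Log2 ratio of Cy5 (labelled odontoblast) over Cy3 (labelled osteoblast) for each probe of the 5 genes that have more than 1, with 1 point per array and a vertical bar for the mean (n = 4). The Fgfr2 probes lie together near 3, whereas the Etv4 probes differ, with means of -1.89 and -0.79, as do the Fgfr4 probes, with means of 0.88 and 0.20.

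The Sprouty genes encode inhibitors of receptor tyrosine kinase signalling, and 2 of 3 were called, in opposite directions. Spry1 had intensities of 1422, 752, 658 and 562 in the channel labelled odontoblast, against 293, 308, 136 and 228 in the channel labelled osteoblast. The channels did not overlap, and the Cy3 spot was well above background on 3 of 4 arrays. The ratios were 2.28, 1.29, 2.27 and 1.30, so that arrays 1 and 3 lay about a log2 unit above arrays 2 and 4. The mean ratio of Spry1 was 1.78 ± 0.26 (SE, n = 4), 3.45-fold higher in the channel labelled odontoblast (adjusted p = 0.0474). The call lay close to the threshold: the adjusted p was 0.172, 0.135, 0.0998 and 0.154 without array 1, 2, 3 and 4, and 0.0993 with the scanner software's own processed signals. Of 14 other settings that measured Spry1, 11 ended the call, at ratios that stayed positive (1.62 to 2.41).

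Spry4 ran the other way. Its intensities were 96.6, 104, 116 and 70.3 in the channel labelled odontoblast, against 265, 300.0, 539 and 195 in the channel labelled osteoblast, with no overlap. The signal was low in both channels, and the Cy5 spot was well above background on 3 of 4 arrays. The ratios were -1.46, -1.52, -2.22 and -1.47, tight on 3 arrays and lower on array 3. The mean ratio of Spry4 was -1.67 ± 0.21 (SE, n = 4), a 3.18-fold higher signal in the channel labelled osteoblast (adjusted p = 0.0334). The adjusted p was 0.129, 0.137, 0.0555 and 0.149 without array 1, 2, 3 and 4, and with the processed signals the ratio was -3.04 (adjusted p = 0.0240).

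Spry2, the third of the family, was not called. Its intensities were 1417, 3151, 2245 and 1587 in the channel labelled odontoblast, against 1632, 1339, 1092 and 2089 in the channel labelled osteoblast, and the channels overlapped. The ratios were -0.20, 1.23, 1.04 and -0.40, positive on arrays 2 and 3 and negative on arrays 1 and 4, with a mean of 0.42 ± 0.35 (SE, n = 4; adjusted p = 0.550).

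Of the ETS factors, Etv4 was called and Etv5 was not. Both belong to the PEA3 group, which acts downstream of FGF receptors in limb, lung and tooth development. Etv4 had intensities of 1558, 372, 1658 and 788 in the channel labelled odontoblast, against 5447, 1645, 4373 and 3624 in the channel labelled osteoblast. The Cy5 value was the lower on every array, although arrays differed enough that the Cy5 value of array 3 exceeded the Cy3 value of array 2. The ratios were -1.81, -2.14, -1.40 and -2.20, and the mean ratio of Etv4 was -1.89 ± 0.21 (SE, n = 4), a 3.70-fold higher signal in the channel labelled osteoblast (adjusted p = 0.0256). The adjusted p was 0.119, 0.123 and 0.136 without array 1, 2 and 4, and 0.0439 without array 3. The second Etv4 probe, 265 bases away on chr11, gave -1.43, 0.02, -0.81 and -0.96, a mean of -0.79 (adjusted p over all probes 0.220), so the size of the Etv4 ratio depended on the probe.

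Etv5 had intensities of 604, 576, 610 and 953 in the channel labelled odontoblast, against 749, 561, 562 and 719.8 in the channel labelled osteoblast. Its ratios were -0.31, 0.04, 0.12 and 0.40, a mean of 0.06 ± 0.19 (SE, n = 4; adjusted p = 0.883), and the channels overlapped. Dusp6, the ERK phosphatase gene, had intensities of 1226, 1279, 1702 and 648 in the channel labelled odontoblast, against 2402, 801, 958 and 861 in the channel labelled osteoblast. Its ratios were -0.97, 0.68, 0.83 and -0.41, a mean of 0.03 ± 0.36 (SE, n = 4; adjusted p = 0.971). Like Spry2, Dusp6 was positive on arrays 2 and 3 and negative on arrays 1 and 4. With an SD of 0.87 between arrays, the near-zero mean of Dusp6 does not show equal levels.

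Ordered by mean ratio the genes ran Fgfr2, Spry1, Fgfr4, Spry2, Fgfr3, Etv5, Dusp6, Fgfr1, Spry4 and Etv4. The difference between neighbours exceeded its SD over arrays in 3 of 9 cases. These were Fgfr2 over Spry1 (1.39 ± 0.97, SD, n = 4), Spry1 over Fgfr4 (0.90 ± 0.48) and Fgfr1 over Spry4 (1.36 ± 0.66). Each had 1 direction on all arrays, with p = 0.125 in an exact two-sided sign-flip permutation test, the smallest that 4 arrays allow, and 0.375 after adjustment over the 9 neighbours. The 6 other neighbours, from Fgfr4 down to Fgfr1 and Spry4 over Etv4, did not differ beyond their spread.

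Within families, 8 of 10 pairs differed in 1 direction on all 4 arrays, each with p = 0.125 in the exact permutation test and 0.156 after adjustment over the 10 pairs. The ratio of Fgfr2 exceeded that of Fgfr3 by 2.92 ± 1.23 and that of Fgfr4 by 2.29 ± 0.61 (SD, n = 4), and Fgfr1 minus Fgfr2 was -3.48 ± 0.84. Spry1 exceeded Spry4 by 3.45 ± 0.82 and Spry2 exceeded Spry4 by 2.09 ± 1.09. Etv4 minus Etv5 was -1.95 ± 0.54. The pairs of Fgfr3 with Fgfr1 and with Fgfr4 had both directions.

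Receptors were set against the 6 feedback and target genes by their median ratio on each array, as a description without a test. The receptors' median was 1.31, 0.31, 0.49 and 0.25 on arrays 1 to 4, against -0.64, 0.36, 0.47 and -0.40 for the feedback and target genes. The difference was 1.95, -0.04, 0.02 and 0.65, with a mean of 0.64 ± 0.93 (SD, n = 4), smaller than its spread. It was large on array 1, and near 0 on arrays 2 and 3. The feedback and target genes did not move as 1 group: Spry1 was called one way, Spry4 and Etv4 the other, and Etv5 and Dusp6 had means near 0.

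The rest of the pathway was counted from 4 lists. Of 18 FGF ligand genes 14 were measured above the filter, and 0 were called in limma, with 4 at an unadjusted p under 0.05, a level that 19.0% of all features reached. Their median ratio was 0.11, where that of all features was -0.0028. Fgf22, a ligand of the group that prefers epithelial receptor forms, was positive on all arrays with a mean of 0.68 (adjusted p = 0.194), but its dimmest probe had -0.30. Of 9 genes for co-receptors and binding proteins 8 were measured, with a median of -0.44, and 1 was called. This was Flrt3, which encodes a membrane protein that binds FGF receptors, with ratios of -2.63, -1.28, -2.00 and -1.86. Its mean was -1.94 ± 0.26 (SE, n = 4), a 3.84-fold higher signal in the channel labelled osteoblast (adjusted p = 0.0379, and 0.127, 0.0930, 0.0924 and 0.168 without array 1, 2, 3 and 4). Its relative Flrt2 had 1.31 (adjusted p = 0.167), and Fgfbp1, for a carrier that releases FGFs from the matrix, -0.88 (adjusted p = 0.243), or -0.53 without array 3.

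Of 20 genes of receptor adaptors and the ERK cascade 18 were measured and 0 were called in limma, with 3 at an unadjusted p under 0.05 and a median of -0.11. Araf, a RAF kinase gene, had 1.02 (adjusted p = 0.145), Plcg1, for a phospholipase that the receptors bind, -0.59 (adjusted p = 0.184), and Mapk3, which encodes ERK1, -0.44 (adjusted p = 0.293). These values depended on the setting: Araf had 0.55 with the mean of its probes and 0.092 with its dimmest, Plcg1 -0.12 with median centring and -0.043 with its dimmest probe, and Mapk3 -0.0068 with median centring. Of 21 other feedback inhibitors and ERK responsive genes 20 were measured and 0 were called, with 7 at an unadjusted p under 0.05, a median of -0.27, and 14 negative means against 6 positive ones. The median of all features was -0.0028. Fosl1, an AP-1 factor gene that ERK signalling induces, had -2.37 (adjusted p = 0.0902), the ERK phosphatase gene Dusp4 -1.60 (adjusted p = 0.120) and Dusp9, another of that family, -1.37 (adjusted p = 0.171). Spred3, a Sprouty-related inhibitor gene named after its values were seen, had -1.98, -2.38, -2.50 and -0.94, a mean of -1.95 (adjusted p = 0.0545). Fos, also named after its values were seen, had the highest mean of that list, 1.24 (adjusted p = 0.292), with 2.67, 0.68, 2.05 and -0.43.

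**Figure D4:**
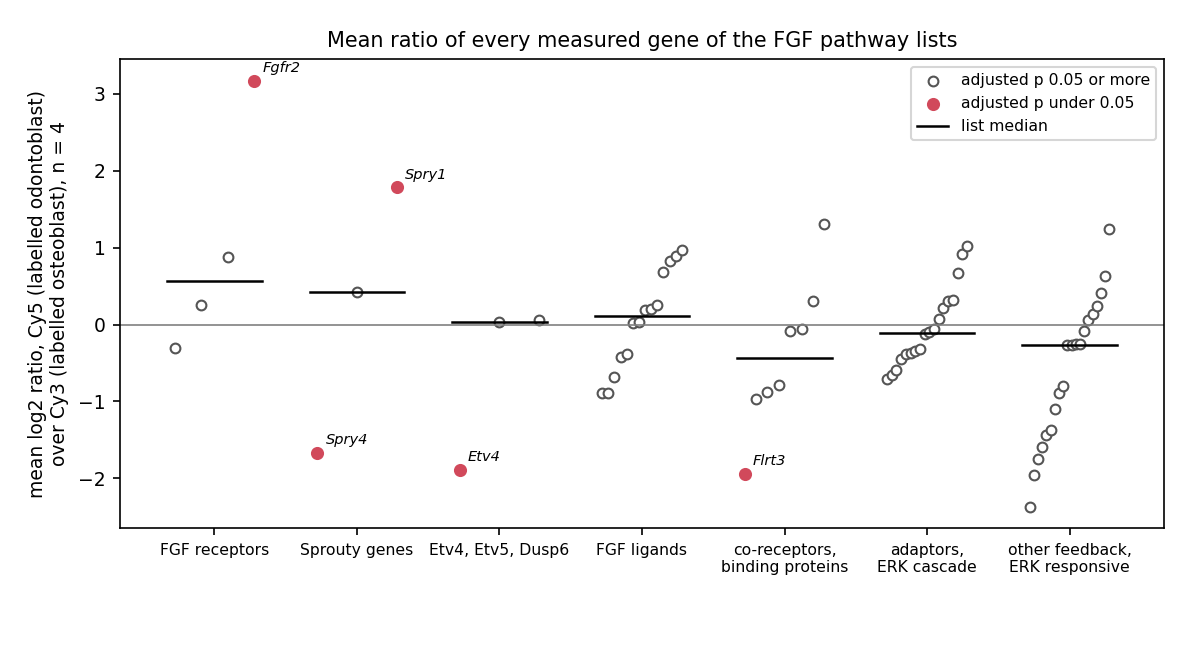
Mean log2 ratio of Cy5 (labelled odontoblast) over Cy3 (labelled osteoblast), n = 4 arrays, for each measured gene of the FGF lists, with filled points for an adjusted p under 0.05 and a bar for the list's median. The 5 called genes are Fgfr2 and Spry1 above 0 and Spry4, Etv4 and Flrt3 below 0, and most of the other feedback and ERK responsive genes lie below 0.

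Markers of other cell types also differed between the channels, and their part in the ratios of Fgfr2, Spry1, Spry4 and Etv4 was not tested. In such bulk RNA fewer cells of a type and less RNA per cell cannot be told apart. Over all features, 1.01% were called higher in Cy5 and 0.653% higher in Cy3. The sums below add intensities of different probes, so the brightest genes of a list weigh most. Summed normalised intensity of the cartilage markers was 49769 to 219872 in the channel labelled odontoblast, against 5017 to 10553 in the channel labelled osteoblast (3 of 11 called, all higher in Cy5). Comp, named after its values were seen, was the brightest of them in Cy5 (mean log2 intensity 16.1, against 12.1 for Col11a2, the next). The fibroblast and periosteum markers had 184412 to 275515 in Cy5 against 62600 to 218037 in Cy3 (5 of 10 called, all higher in Cy5). The channels of that list overlapped, since array 3 had 207152 in Cy5 against 218037 in Cy3, and 2 of its genes, Postn and Pdgfra, were negative on all 4 arrays (mean ratios of -1.62 and -1.05, adjusted p = 0.0954 and 0.125). Both genes are named after their values were seen. The leukocyte markers had 114713 to 208577 in Cy5 against 79525 to 109840 in Cy3 (2 of 11 called, both higher in Cy5). Of the 11 leukocyte means 3 were negative. Itgam, the brightest leukocyte gene and named after its values were seen, had mean log2 intensities of 16.2 in Cy5 and 16.0 in Cy3. Its mean ratio was 0.17 (adjusted p = 0.684). Csf1r, also named after its values were seen, was negative on all 4 arrays (mean ratio -0.39, adjusted p = 0.285). The dental epithelium markers had 2248 to 3157 in Cy5 against 6608 to 13008 in Cy3 (2 of 9 called, both higher in Cy3), and Amtn, Cdh1 and Shh of that list had no kept probe. The channels also overlapped for the markers of endothelium (4545 to 5218 in Cy5 against 3956 to 8635 in Cy3, with no kept probe for Cdh5 and Tie1), of Schwann cells and nerve (1294 to 2851 in Cy5 against 1026 to 1612 in Cy3) and of mural cells (38269 to 45442 in Cy5 against 20802 to 52238 in Cy3).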

How the data were processed

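The 4 arrays held 1 RNA labelled odontoblast (Cy5) and 1 labelled osteoblast (Cy3) each, from 250 ng of cDNA, on 1 slide read in 1 scan, per the labels and file headers. The scanner files as deposited hold spot and background intensity without normalization, processed intensity and its log10 ratio, and name Agilent Feature Extraction 10.7.3.1 in their headers. The deposited value table holds that log10 ratio: 99.3% to 99.4% of probes lay within 0.0001, with column medians of 0. The software's flags, numbers other than intensities, are used as deposited. Later steps of the authors are not known here.

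With limma 3.58.1 (R 4.3.3), background was corrected by normexp (offset 50) and each array was normalized by loess with weight 0 for its 3671 control spots. In all, 949 outlier values were set to missing, and 0 spots were saturated. A probe was kept when one channel, the same each time, was well above background on 3 or more of 4 arrays (44239 of 55681, including all 17 of the 10 genes, 15 of them in both channels on all arrays). A gene is represented by its brightest probe. Ratios were tested with lmFit and eBayes, two-sided. Intensities are after loess and Aquantile normalization. SE is limma's moderated error. Names came from RefSeq (GRCm38.p6) by accession for 27235 probes and by the file's symbol otherwise; 16 of the 17 probes matched. Probe sequences and mm9 positions are the scanner files' own.

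The genes and lists were chosen with earlier results of these data known. Named pathway genes are those called and, up to 3 per list, the largest uncalled ratios of 1 sign well above background throughout. The 3 genes nearest to Fgfr2 in their ratios were also taken, and 1 of them is left out here. The script was tested on simulated data, where 2% of 2-fold changes and 70% of 4-fold changes were called. The smallest fold called in these arrays was 2.08, so a gene that was not called is not shown to be equal. The alternatives were other background corrections, normalizations, filters, probe choices and variance priors, and leaving out each array; 1 of 15, the dimmest probe of a gene, was chosen after seeing the data. Precision is limited by the number of arrays.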

Additional observations from a re-analysis of the deposited data

Results flagged for a closer look

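The 4 ratios of each named gene and probe were searched for an array far from the others, in 27 tests (20 genes and 7 further probes), where chance gives about 1 in 20. Both cases were on array 3. Fgfr1 had 0.12 on array 3, against -0.50 to -0.42 on the other arrays. Spry4 had -2.22 on array 3, against -1.52 to -1.46 on the other arrays. On array 3 the summed intensity of the fibroblast and periosteum markers in Cy3 was 218037, the highest of the 4 arrays, and its share of probes well above background was the lowest of the 4 in both channels, 75.5% in Cy5 and 67.8% in Cy3. Their part in the Fgfr1 and Spry4 values was not tested.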

How the results depend on the processing

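The number of features called was 620, and became 396 with the software's processed signals, 398 with the deposited value table, 2506 with median centring and 0 to 248 with an array left out. Median centring moved the median of all features to 0.16 and gave 84.0% of calls higher in Cy5, against 60.6% with loess. Of the 10 genes 4 were called, against 2 when both channels had to be well above background on all arrays (Spry1 and Spry4 did not pass that filter), 2 with the dimmest probe and 0 to 1 with an array left out, where fewer arrays were fitted. Etv4 was not called with its dimmest probe (-0.79, adjusted p = 0.224). Where they were tested, Fgfr2 and Spry4 lost the call only in the 4 settings without an array. Flrt3, the 1 call among co-receptors, gave 0 calls with the processed signals, the value table, no filter, the mean of probes, the dimmest probe and each array left out. The ligands had 0 calls, and 1 with median centring. The other feedback genes had 0, and 1 with median centring and 1 with scale normalization. The sign turned for Fgfr1 with median centring (0.60), for Dusp6 with processed signals (-0.024) and the value table (-0.024), and for Fgf22 with the dimmest probe (-0.30). With an array left out, Dusp6 lay between -0.24 and 0.36, Fgfr3 between -0.15 and 0.46, and Etv5 between -0.052 and 0.19. The cause of these changes was not tested, other than fewer arrays or genes where named. The reported fit is already a paired one, since each within-array ratio is the difference between the 2 RNAs of that array. All arrays form 1 group, so no further pairing was fitted.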

Other observations

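Among ligand genes of mesenchyme and bone, named after their values were seen, Fgf18 had ratios of -0.45, -0.36, -3.01 and 0.24, so that its mean of -0.90 (adjusted p = 0.434) rested on array 3. Fgf7 had -0.81, 2.15, 1.40 and 0.58, a mean of 0.83 (adjusted p = 0.418), and Fgf2 had -0.07, 1.71, 0.80 and 1.12, a mean of 0.89 (adjusted p = 0.226). Both were negative on array 1 and positive on the other arrays. Fgf9, a ligand gene also used by dental epithelium, had -1.42, -1.20, -1.10 and 0.16, a mean of -0.89 (adjusted p = 0.218).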
